A study of Mus musculus with 9 samples.

Results

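The genes of extracellular nucleotide signalling examined here were measured in peptide-activated CD8 T cells of 3 clones, named R7-I, R7-II and R7-III. They were the 6 rows of the expression table, of 24060 genes in all, whose symbols are P2rx7, P2rx4, Adora2a, Nt5e, Entpd1 and Art2b. These were taken by name, with earlier results of these data known. The cells came from transnuclear BALB/c mice (Rag2 proficient, CD90.2), lines cloned from the nucleus of a ROP7-specific CD8 T cell of a Toxoplasma-infected mouse, so that each line stands for the receptor of 1 founder cell. Spleen cells of each line were incubated overnight with 10 µM ROP7 peptide in medium with 10 ng/ml IL-2, and CD3+ CD8+ cells binding the H-2Ld-Rop7 tetramer were sorted, with a stated purity of 90 to 95%. All 9 libraries, 3 per clone, were of such activated cells, and the unstimulated cells were not analysed here. The series orders affinity for the peptide as R7-I above R7-III above R7-II, and self-reactivity as R7-III above R7-I above R7-II. The labels call the libraries of a clone biological replicates without tying them to separate mice, and p-values therefore measure only the spread between these libraries, which may be technical. No age of the mice was stated.

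ATP that leaves stressed, dying or activated cells opens P2X channels such as P2X7 and P2X4 on neighbouring T cells. At the cell surface CD39, the product of Entpd1, degrades ATP and ADP to AMP, and CD73, the product of Nt5e, turns AMP into adenosine, which acts through the receptor encoded by Adora2a to raise cyclic AMP and restrain T cell activation. ART2.2, the product of Art2b, uses extracellular NAD to attach ADP-ribose to surface proteins of mouse T cells, P2X7 among them, and thereby gates that channel without ATP.

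In R7-II, the clone of lowest affinity, the libraries did not overlap the other 6 for any of the 6 genes. Many other genes shared this pattern. Of genes whose highest TPM was above 1, 41.7% had all R7-II libraries above the other 6 and 17.4% had them all below. Of genes whose highest TPM was above 0 and not above 1, as for P2rx7, Nt5e and Entpd1, the shares were 9.98% and 1.03%. Relative to both other clones R7-II had more P2rx4 and less Adora2a, and these differences passed the test. Art2b was above 1 TPM in R7-II alone, so that its entry into the fit came from the clone where it was high. P2rx7, Nt5e and Entpd1 were near the floor of the table, and their R7-II values lay above those of the other 6 libraries without passing the threshold of the fit over all genes. Between R7-I and R7-III, 0 of the 6 genes passed in limma and 0 had an unadjusted p under 0.05.

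The genes lie on 5 chromosomes of GRCm38.p6, the RefSeq assembly of the same build as mm10. P2rx7 (chromosome 5, 122643927 to 122692336) and P2rx4 (chromosome 5, 122707518 to 122729739) are neighbours, 15181 bases apart. Adora2a lies on chromosome 10 (75316877 to 75334792), Nt5e on chromosome 9 (88327609 to 88372089), Entpd1 on chromosome 19 (40612366 to 40741602) and Art2b on chromosome 7 (101575729 to 101585591). The relative Art2a lies 14863 bases from Art2b. The annotation, of a C57BL/6 genome, names Art2a as a pseudogene, and its state in BALB/c was not tested. Promoter sequences from RefSeq (GRCm38.p6, 250 bases before the start and 50 from it) were matched for 5 of the 6 members. Those of P2rx4 and Art2b are shown because these members were higher in R7-II, and because their composition differs. Each is written 5′ to 3′ on the strand of its gene, in lower case, with CACCC and its reverse complement GGGTG, the box bound by Kruppel-like factors, in capitals. P2rx4 is at chr5:122707294-122707593 on the plus strand and Art2b at chr7:101581112-101581411 on the minus strand. The Art2b stretch lies inside the gene interval given above, so it belongs to an internal transcript start and not to the outer end of the gene.
P2rx4: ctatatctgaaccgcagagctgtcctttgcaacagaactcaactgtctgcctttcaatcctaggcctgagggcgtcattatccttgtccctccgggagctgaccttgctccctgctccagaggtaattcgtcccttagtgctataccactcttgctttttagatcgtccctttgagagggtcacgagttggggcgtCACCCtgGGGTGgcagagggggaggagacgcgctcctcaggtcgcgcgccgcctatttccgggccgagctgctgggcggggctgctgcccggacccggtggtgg
Art2b: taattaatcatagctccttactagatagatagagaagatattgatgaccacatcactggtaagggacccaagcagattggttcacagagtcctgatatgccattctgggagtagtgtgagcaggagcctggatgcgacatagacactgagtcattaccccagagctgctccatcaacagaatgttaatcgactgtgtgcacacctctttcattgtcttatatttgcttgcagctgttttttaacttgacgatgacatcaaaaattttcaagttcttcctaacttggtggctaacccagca
The P2rx4 promoter was 60.3% G and C, and the Art2b promoter 42.3%. On both strands together P2rx4 held 2 CACCC boxes, 1 GC box (GGGCGG), 2 cores of the cyclic AMP response element (TGACG) and 1 NFAT core (GGAAA). Art2b held 1 TGACG and none of the other 3 motifs. These motifs are common, since 57.5% of 32851 promoters of the same length held CACCC, 35.7% GGGCGG, 20.8% TGACG and 61.3% GGAAA. One reverse TGACG core of P2rx4 shares bases with its forward CACCC box. A match describes letters only.

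Expression was measured in TPM, a length-corrected transcript level that sums to the same total in every library. The read depth behind a TPM value is unknown, so no counting interval can be given. The number of genes detected above 0 TPM ranged from 13738 to 14434, and libraries of the same clone correlated across genes with r between 0.992 and 0.997, against 0.959 to 0.991 for different clones. Folds and tests were computed on log2(TPM + 1) for the 11330 genes whose highest TPM exceeded 1, with limma, Benjamini-Hochberg adjustment over all of them and a threshold of 0.01. R7-II differed from the other clones in much of the transcriptome. In R7-II against R7-I 56.1% of genes passed (40.6% higher, 15.5% lower), and against R7-III 53.6% passed (35.6% higher, 18.0% lower), while 8.41% passed in R7-III against R7-I (6.96% higher, 1.45% lower). The median log2 fold change of all genes tested was 0.17, 0.12 and 0.045 in these 3 comparisons. Of the genes that passed, 72.4%, 66.4% and 82.8% were higher in the clone named first, and after median-of-ratios scaling of the libraries 46.2%, 47.0% and 56.6% were. A call in R7-II is therefore common, and the size of each member's change is set beside that of all genes.

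Of the members, P2rx4, Adora2a and Art2b passed the filter, Art2b only through its R7-II values, so that a gene like it had to differ. P2rx7, Nt5e and Entpd1 did not pass.

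**Figure D1:**
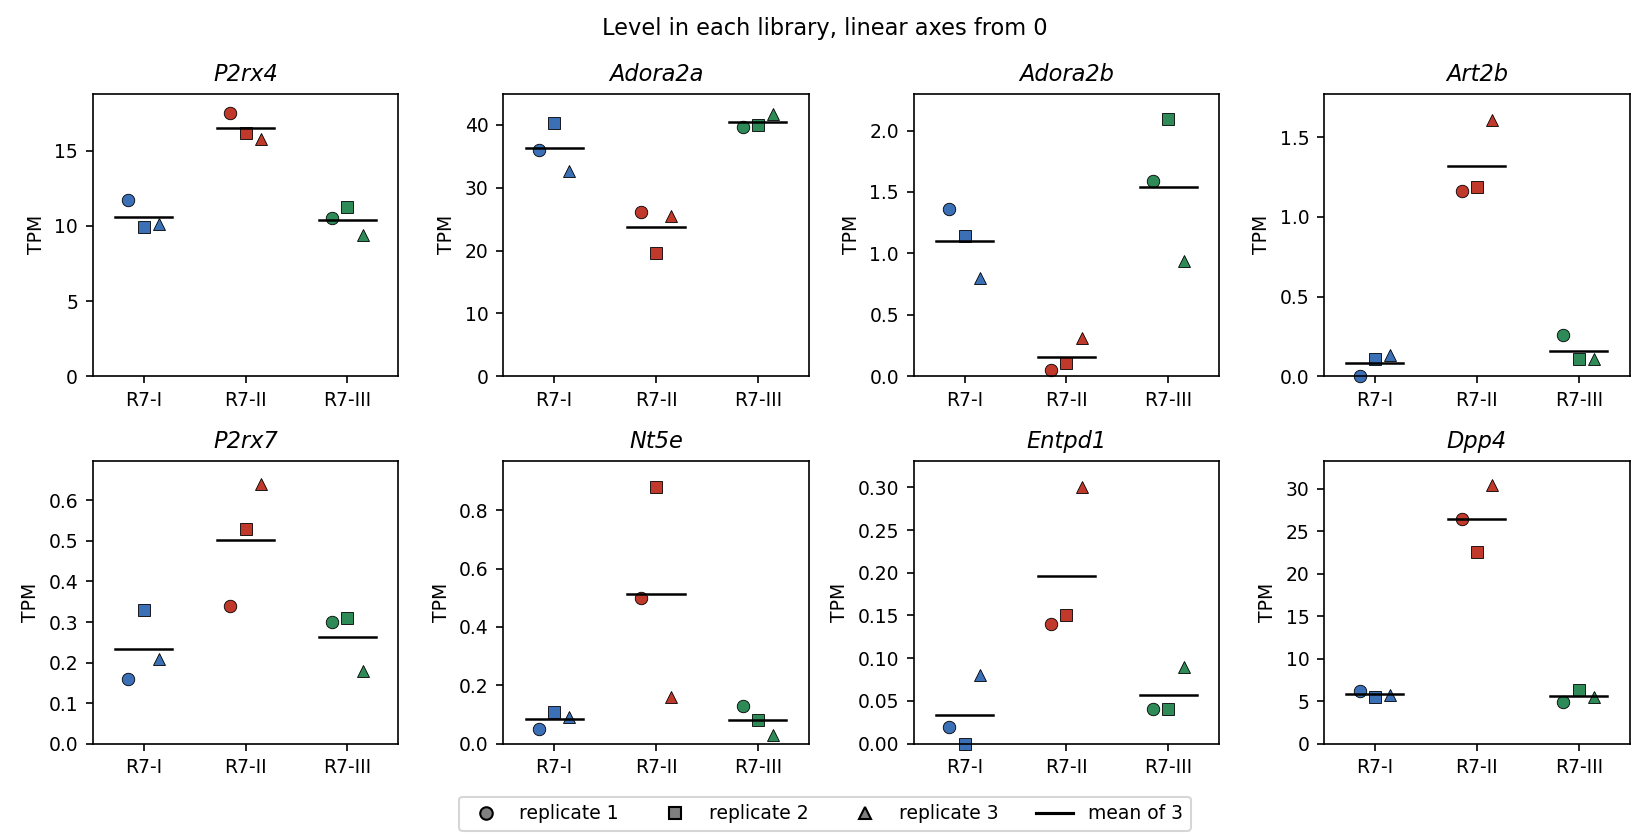
Level of the 6 members, Adora2b and Dpp4 in TPM (linear axes from 0, each with its own scale) in the 3 libraries of each clone; points are single libraries and lines are means of 3. In every panel the R7-II libraries lie apart from the other 6, below them for Adora2a and Adora2b and above them for the other genes.

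P2rx4, which encodes an ATP-gated cation channel of the plasma membrane and of lysosomes, was the more abundant of both P2X members. Its level was 11.74, 9.90 and 10.13 TPM in the R7-I libraries, 17.51, 16.17 and 15.77 TPM in R7-II, and 10.51, 11.29 and 9.39 TPM in R7-III. The 3 R7-II libraries were the highest, and those of R7-I and R7-III overlapped. The means were 10.6 ± 1.00, 16.5 ± 0.911 and 10.4 ± 0.955 TPM (SD, 3 libraries per clone), so that R7-II was 1.56-fold above R7-I and 1.59-fold above R7-III. On the log2(TPM + 1) scale the difference was 0.60 against R7-I (95% confidence interval 0.41 to 0.78, adjusted p = 1.01e-04 from limma) and 0.62 against R7-III (0.43 to 0.80, adjusted p = 8.12e-05 from limma). It exceeded the median shift of all genes, and 16.9% and 12.9% of genes tested had a log2 fold change at least as large. After quantile normalization the difference from R7-I fell to 0.31 and still passed (adjusted p = 0.00828 from limma). The difference of R7-III from R7-I was -0.024 (-0.21 to 0.16, adjusted p = 0.882 from limma).

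P2rx7, which encodes the channel that needs high ATP and can open a large pore, was barely detected. It was listed at 0.16, 0.33 and 0.21 TPM in R7-I, at 0.34, 0.53 and 0.64 TPM in R7-II and at 0.30, 0.31 and 0.18 TPM in R7-III. The lowest R7-II library exceeded the highest of the others by 0.01 TPM, the smallest step of the table, so the groups were separate by that margin only. The difference of R7-II from the other 6 libraries in log2(TPM + 1) was 0.27 (exact two-sided permutation test, p = 0.0238, and no split of 3 against 6 can give less). When genes of all levels were fitted, P2rx7 did not pass against R7-I (log2 fold change 0.28, adjusted p = 0.0201 from limma) or R7-III (0.25, adjusted p = 0.0361 from limma). P2rx4 and P2rx7 are neighbours in the genome, and both were highest in R7-II.

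Adora2a, which encodes the receptor through which adenosine raises cyclic AMP in T cells, was the most abundant member in every library. It stood at 35.99, 40.27 and 32.68 TPM in R7-I, at 26.18, 19.54 and 25.50 TPM in R7-II, and at 39.62, 39.94 and 41.75 TPM in R7-III. The highest R7-II library was below the lowest of the other 6, and R7-I and R7-III overlapped. With means of 36.3 ± 3.81, 23.7 ± 3.65 and 40.4 ± 1.15 TPM (SD, 3 libraries per clone), R7-II was 1.53-fold below R7-I and 1.70-fold below R7-III. The log2(TPM + 1) difference was -0.60 against R7-I (95% confidence interval -0.83 to -0.37, adjusted p = 4.16e-04 from limma) and -0.75 against R7-III (-0.98 to -0.53, adjusted p = 8.85e-05 from limma). This went against the median shift of all genes, and 3.97% and 4.58% of genes tested fell as far. After median-of-ratios scaling the differences were -0.78 and -0.88. The difference of R7-III from R7-I was 0.16 (-0.07 to 0.38, adjusted p = 0.333 from limma).

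Nt5e, the CD73 gene, was at 0.05, 0.11 and 0.09 TPM in R7-I, at 0.50, 0.88 and 0.16 TPM in R7-II and at 0.13, 0.08 and 0.03 TPM in R7-III. Each R7-II library exceeded the other 6, replicate 3 by 0.03 TPM only. The difference in log2(TPM + 1) was 0.46 (exact two-sided permutation test, p = 0.0238) and dropped to 0.29 without R7-II replicate 2, where 2 against 6 libraries cannot reach a p below 0.0714 in the exact test. Entpd1, the CD39 gene, was listed at 0.02, 0 and 0.08 TPM in R7-I, at 0.14, 0.15 and 0.30 TPM in R7-II and at 0.04, 0.04 and 0.09 TPM in R7-III. Again the R7-II libraries were the highest, with a difference of 0.19 in log2(TPM + 1) (exact two-sided permutation test, p = 0.0238). No level of either enzyme reached 1 TPM, so both were measured close to the floor in all 3 clones.

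For the low members the fit over all genes with a TPM above 0 gave 0 of 3 calls at the threshold. In R7-II against R7-I the adjusted p from limma was 0.0268 for Nt5e and 0.0111 for Entpd1, and with R7-III as the other clone it was 0.0262 and 0.0246. At an unadjusted p under 0.05 all 3 were higher in both comparisons, as were 40.3% of all genes in that fit in R7-II against R7-I and 36.6% with R7-III as the other clone. At the adjusted threshold R7-II was called higher for 28.1% of genes when set against R7-I and for 24.7% against R7-III, and R7-III was called higher for 3.75% against R7-I. Among genes whose highest TPM was above 0 and not above 1, the R7-II libraries were all above the other 6 for 9.98% and all below for 1.03%.

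Art2b, the gene of the ART2.2 ecto-enzyme, was listed at 0, 0.11 and 0.13 TPM in R7-I, at 1.16, 1.19 and 1.61 TPM in R7-II and at 0.26, 0.11 and 0.11 TPM in R7-III. Each R7-II library was above 1 TPM and each of the others was below 0.3 TPM. The mean R7-II level was 16.5 times that of R7-I and 8.25 times that of R7-III, but these ratios rest on values a few steps above 0. On log2(TPM + 1) the difference was 1.10 against R7-I (95% confidence interval 0.80 to 1.40, adjusted p = 4.38e-05 from limma) and 1.00 against R7-III (0.69 to 1.30, adjusted p = 9.31e-05 from limma). Since only its R7-II values carried Art2b past the filter, these p-values are no independent support. In the fit without a filter the adjusted p was 1.90e-05 and 3.26e-05 (limma). Its size depended on the pseudocount, with a difference from R7-I of 3.06 at a pseudocount of 0.1 and of 0.31 at 5. Of 2811 windows of 100 bases in the Art2b transcripts, 28 (0.996%) occur unchanged in its relative Art2a, which was listed between 0 and 0.09 TPM. Windows that differ by a few bases were not counted, so this figure does not measure how alike the genes are. The annotation is that of a C57BL/6 genome and the mice were BALB/c, which was not tested.

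Of all genes tested, R7-II was higher in both of its comparisons for 31.9% and lower in both for 12.8%. P2rx4 belongs to the former share and Adora2a to the latter.

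**Figure D2:**
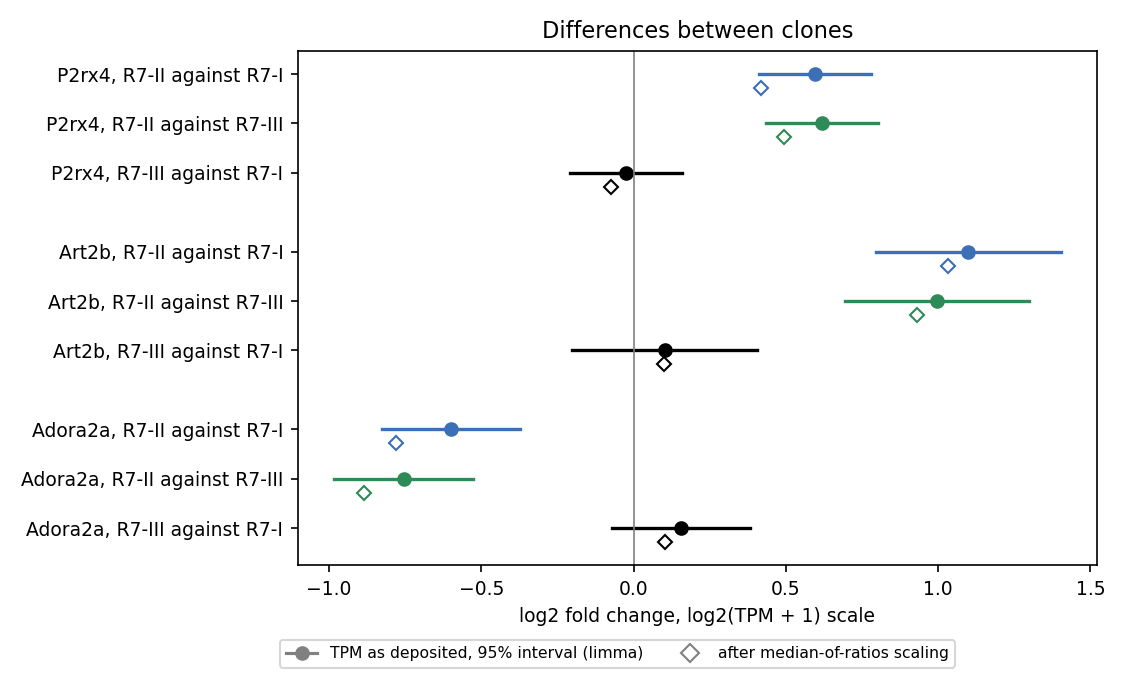
Log2 fold change on the log2(TPM + 1) scale (horizontal axis) of P2rx4, Art2b and Adora2a for each pair of clones; filled circles with bars are limma estimates from deposited TPM with 95% confidence intervals over 9 libraries, and open diamonds are estimates after median-of-ratios scaling. Adora2a lies below 0 (-0.60 and -0.75) and Art2b (1.10 and 1.00) and P2rx4 (0.60 and 0.62) above 0 in both comparisons of R7-II, and the 3 intervals of R7-III against R7-I include 0.

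Marker lists of the sorted population and of other spleen cells were summed to check the libraries. All 8 CD8 T cell markers, of which Lck and Zap70 were the most abundant over the 9 libraries, were detected in every library, and their sum was 2206 to 2229 TPM in R7-I, 3111 to 3145 TPM in R7-II and 2395 to 2464 TPM in R7-III. In R7-II 7 of 8 of them passed as higher against either clone. Marker sums of other cells were also highest in R7-II, except for the NK cell list. The B cell list of 10 genes, led by Cd79b and Cd79a, summed to 8.66 to 15.87 TPM in R7-I, 34.66 to 73.39 TPM in R7-II and 5.32 to 8.10 TPM in R7-III, with 8 of 8 tested genes higher in R7-II. The MHC class II list of 7 genes, led by Cd74 and H2-Aa, summed to 32.38 to 50.32, 112.47 to 183.11 and 24.29 to 28.13 TPM in the same order of clones, with 7 of 7 higher. The myeloid list of 12 genes, of which Ctss and Lyz2 were the most abundant over the 9 libraries, summed to 31.05 to 36.67, 54.99 to 124.01 and 28.85 to 32.56 TPM, with 7 and 8 of 9 tested genes higher. Lyz2 was at 28.23, 13.80 and 56.74 TPM in R7-II and at 2.43 TPM at most elsewhere. In R7-I, Cd14 and Clec4a2 were listed at 0 in all 3 libraries, as was Clec4a2 in R7-III. The CD4 and regulatory T cell list of 5 genes, led by Ikzf4 and Cd40lg, summed to 6.56 to 7.78, 13.64 to 16.48 and 9.0 to 11.13 TPM. Foxp3 was at 1.07 TPM at most. Of the 3 genes of this list that were tested, R7-II was called higher for 1 when set against R7-I. With R7-III as the other clone 2 were higher and 1, Cd40lg, was lower (log2 fold change -1.03, adjusted p = 7.61e-04 from limma). The NK cell list of 4 genes, 10.29 to 15.23, 5.66 to 12.97 and 10.64 to 13.01 TPM, was almost wholly Eomes, and Klra8 was listed at 0 in all 9 libraries.

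B cells, regulatory T cells and myeloid cells are known to express Entpd1, B cells and regulatory T cells Nt5e, and macrophages P2rx4 and P2rx7, so these values belong beside the members. Within R7-II, replicate 2 had the lowest sum of the B cell, MHC class II and myeloid lists (34.66, 112.47 and 54.99 TPM). In that library Nt5e was at its highest (0.88 TPM) and Adora2a at its lowest (19.54 TPM), while P2rx4 (16.17 TPM) and Art2b (1.19 TPM) were between those of the other R7-II libraries. Replicate 3, with the highest myeloid sum (124.01 TPM), had the highest P2rx7 (0.64 TPM), Entpd1 (0.30 TPM) and Art2b (1.61 TPM). Replicate 1 had the highest B cell and MHC class II sums (73.39 and 183.11 TPM). Its P2rx7 (0.34 TPM), Entpd1 (0.14 TPM) and Art2b (1.16 TPM) were the lowest of R7-II, and its P2rx4 (17.51 TPM) and Adora2a (26.18 TPM) the highest. The part of other cell types in the results was not tested. In bulk libraries fewer cells expressing a gene and less RNA of it per cell cannot be told apart.

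**Figure D3:**
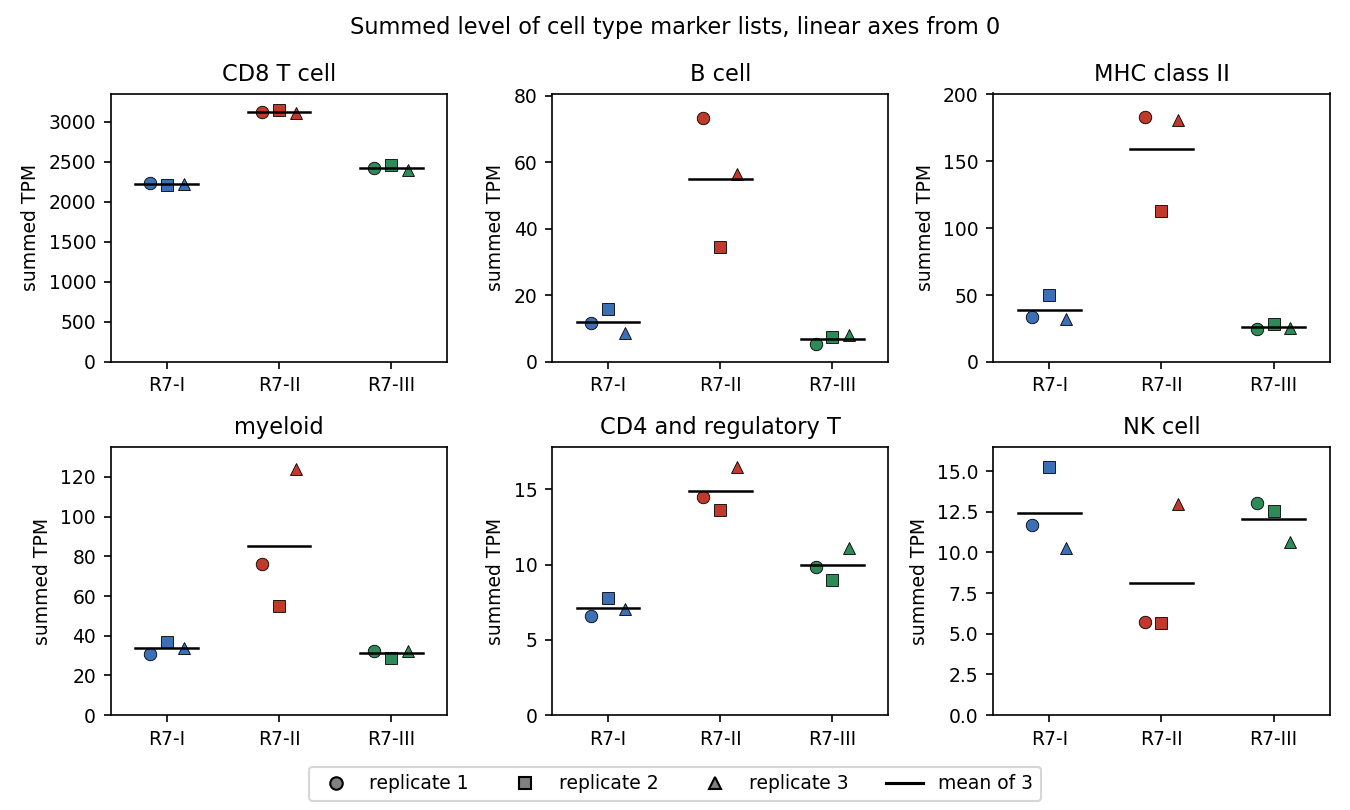
Summed TPM of 6 lists of cell type markers in each library (linear axes from 0, each with its own scale); points are libraries, lines are means of 3. The B cell, MHC class II and myeloid sums are highest in the R7-II libraries, and lowest among these in replicate 2.

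The other genes of the pathway were counted from lists of 63 genes beside the members, of which 37 were tested. In R7-II 18 were higher and 4 lower than in R7-I, and 15 higher and 7 lower than in R7-III. The median log2 fold change of the 37 genes was 0.29 and 0.16, beside 0.17 and 0.12 over all genes tested. After median-of-ratios scaling 13 were higher and 8 lower than in R7-I, and 13 higher and 8 lower than in R7-III. Over all genes tested 40.6% and 35.6% were higher in TPM before this scaling, and 15.5% and 18.0% lower. With median-of-ratios scaling 2860 and 2836 of the 11330 genes tested were higher, 46.2% and 47.0% of those that passed. In TPM, 15 of the 37 were higher in both comparisons and 4 lower, beside 31.9% and 12.8% of all genes tested.

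Of the receptors, the other 5 P2X genes did not pass the filter, and of 8 P2Y genes 2 were tested. P2ry10, named for the nucleotide receptors but known to respond to lysophosphatidylserine, averaged 21.6 ± 0.864, 41.8 ± 4.41 and 21.2 ± 1.10 TPM in the 3 clones in order (SD, 3 libraries per clone), with a log2 fold change of 0.92 and 0.94 (adjusted p = 1.70e-06 and 1.42e-06 from limma). P2ry2, which binds ATP and UTP, was not called in either comparison (-0.31 and 0.01, adjusted p = 0.0624 and 0.952 from limma). After quantile normalization it was called lower than in R7-I (-0.66, adjusted p = 7.61e-04 from limma).

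Adora2b, the low-affinity adenosine receptor that also raises cyclic AMP, was also lower in R7-II. It was at 1.36, 1.14 and 0.80 TPM in R7-I, at 0.05, 0.11 and 0.31 TPM in R7-II, and at 1.59, 2.09 and 0.94 TPM in R7-III. No R7-II library reached the lowest of the others. The means of R7-I and R7-III were 7.02-fold and 9.83-fold that of R7-II, and the log2(TPM + 1) difference was -0.86 and -1.12 (adjusted p = 0.00186 and 3.47e-04 from limma). Adora2b passed the filter through R7-I and R7-III only, where it was high. Without a filter the adjusted p was 0.00313 and 7.65e-04 (limma), in a fit that called 10.2% and 12.3% of genes lower in R7-II. Adora1 was listed at 0 in every library and Adora3 at 0.18 TPM at most.

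Of 11 other ectonucleotidases and phosphatases 6 were tested. Enpp1, which cleaves extracellular ATP to AMP and pyrophosphate, was at 0.207, 1.45 and 0.287 TPM in R7-I, R7-II and R7-III on average, a log2 difference of 1.02 and 0.92 (adjusted p = 6.28e-05 and 1.35e-04 from limma). It passed the filter only through R7-II, and without a filter the adjusted p was 3.14e-05 and 5.61e-05 (limma). Entpd4, a nucleotidase of intracellular membranes, was lower in R7-II (18.0 ± 1.31 TPM) than in R7-I (32.0 ± 0.975 TPM) and R7-III (33.6 ± 3.71 TPM), with log2 fold changes of -0.80 and -0.86 (adjusted p = 8.38e-06 and 5.37e-06 from limma). Entpd5, a nucleotidase of the endoplasmic reticulum, was higher (0.65 and 0.40, adjusted p = 1.44e-05 and 4.81e-04 from limma). Alpl, the alkaline phosphatase that also degrades AMP to adenosine, was far more abundant than Nt5e, with 58.98, 60.64 and 66.46 TPM in the R7-I libraries, 50.61, 48.23 and 54.21 TPM in those of R7-II, and 54.98, 56.15 and 34.82 TPM in those of R7-III. It was not called in R7-II (-0.28 and 0.10, adjusted p = 0.115 and 0.573 from limma), with intervals of -0.60 to 0.05 and -0.23 to 0.42.

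Adenosine is removed by deaminase, kinase and nucleoside transporters. Of the list for this step, which also held Dpp4, 6 of 6 genes were tested. Whether mouse CD26, the product of Dpp4, binds the deaminase was not examined. Dpp4 was the largest change in this list. It was at 6.24, 5.44 and 5.77 TPM in R7-I, at 26.36, 22.52 and 30.38 TPM in R7-II, and at 4.86, 6.35 and 5.44 TPM in R7-III. R7-II was 4.54-fold and 4.76-fold higher, a log2 fold change of 2.00 and 2.06 (adjusted p = 1.99e-07 and 1.87e-07 from limma), and 0.830% and 0.618% of genes tested were as far above. Ada itself, the deaminase, averaged 7.92 ± 0.556, 8.16 ± 0.891 and 11.1 ± 0.500 TPM in the same order. It was lower in R7-II than in R7-III (-0.41, adjusted p = 0.00139 from limma) and not called against R7-I (0.04, adjusted p = 0.706). Slc29a2, a nucleoside transporter, fell from 25.0 ± 0.986 and 23.3 ± 0.416 TPM in R7-I and R7-III to 13.9 ± 1.26 TPM in R7-II (log2 fold change -0.81 and -0.71, adjusted p = 1.72e-06 and 4.25e-06 from limma). Against R7-I, Slc29a1, a more abundant nucleoside transporter, was called higher (0.28, adjusted p = 9.72e-04 from limma). That call was lost after median-of-ratios scaling (0.09, adjusted p = 0.185 from limma) and kept after quantile normalization. Against R7-III Slc29a1 was not called (0.02, adjusted p = 0.806 from limma). Slc29a3 was called in neither comparison in TPM (-0.11 and -0.04, adjusted p = 0.126 and 0.597 from limma).

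Of 5 genes of ATP release 3 were tested, and R7-II was higher for all 3 against either clone, beside 31.9% of all genes. Slc17a9, which loads ATP into vesicles, was at 20.5 ± 2.12, 36.1 ± 5.16 and 20.7 ± 0.555 TPM in R7-I, R7-II and R7-III. Lrrc8a, a subunit of the volume-regulated anion channel, had a log2 fold change of 0.98 and 1.01 (adjusted p = 8.14e-07 and 6.31e-07 from limma). Panx1, the pannexin channel, had log2 fold changes of 0.39 and 0.19 (limma, adjusted p = 5.24e-05 and 0.00722), and the latter call was lost after median-of-ratios scaling (0.05, adjusted p = 0.344 from limma) and quantile normalization (0.04, adjusted p = 0.483), which leaves Slc17a9 and Lrrc8a called under either scaling. Of the 7 other enzymes that use NAD outside the cell 2 were tested, and Art4 was higher in R7-II (0.60 and 0.65, adjusted p = 0.00871 and 0.00553 from limma). Art4 exceeded 1 TPM in R7-II libraries alone, and so passed the filter only through that clone. Its call in R7-II against R7-I was lost with median-of-ratios scaling (adjusted p = 0.0138 from limma), and both calls with quantile normalization (0.28 and 0.40, adjusted p = 0.133 and 0.0448 from limma). Cd38, which hydrolyses NAD, was not called (0.31 and 0.52, adjusted p = 0.114 and 0.0154 from limma). The shedding proteases Adam10 and Adam17, which cut surface proteins, were not called in either comparison, with log2 fold changes between 0.08 and 0.20.

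The Adora2a receptor signals through Gs, adenylyl cyclase and protein kinase A, and 15 of 16 genes of this route were tested. Against R7-I 9 were higher and 1 lower in R7-II, and against R7-III 7 were higher and 3 lower, beside 40.6% higher and 15.5% lower of all genes in the former comparison and 35.6% and 18.0% in the latter. After median-of-ratios scaling Adcy3, Prkaca and Creb1 were no longer called higher than in R7-I, and Gnas, Crem and Pde7a were called lower. Adcy7, an adenylyl cyclase of blood cells, rose from 18.6 ± 0.872 and 21.8 ± 0.717 TPM in R7-I and R7-III to 47.0 ± 7.40 TPM in R7-II (log2 fold change 1.28 and 1.06, adjusted p = 1.31e-06 and 4.90e-06 from limma). Prkacb, a catalytic subunit of protein kinase A, was higher (0.75 and 0.61). The regulatory subunits went both ways. Prkar2a was lower (-0.81 and -1.10, adjusted p = 9.18e-07 and 1.52e-07 from limma). Prkar1a, at 235, 305 and 227 TPM in R7-I, R7-II and R7-III the more abundant, was higher (0.37 and 0.42, adjusted p = 1.45e-05 and 6.26e-06 from limma). The cyclic AMP phosphodiesterase genes Pde3b (0.62 and 0.83), Pde4b (0.50 and 0.83) and Pde4d (0.71 and 0.68) were higher in both comparisons as well. Gnas, the Gs subunit, was lower than in R7-III (-0.39, adjusted p = 7.06e-06 from limma) and not called against R7-I in TPM (-0.09, adjusted p = 0.0417 from limma), where median-of-ratios scaling gave -0.28 (adjusted p = 6.65e-04 from limma). Creb1 (0.31 and 0.21) was no longer called in either comparison once the libraries were scaled by median of ratios (limma, adjusted p = 0.0291 and 0.127).

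Of the 15 pathway genes higher in both comparisons, 13 had their lowest R7-II level in replicate 2. That library had the lowest B cell, MHC class II and myeloid sums of its clone, and also the lowest median-of-ratios scaling factor. The same count was not made over all genes higher in R7-II, so these 13 genes cannot be set beside a background. Adcy7 was at 50.95, 38.47 and 51.60 TPM in R7-II replicates 1, 2 and 3, and Slc17a9 at 37.81, 30.31 and 40.19 TPM. The part of other cell types in these changes was not tested.

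**Figure D4:**
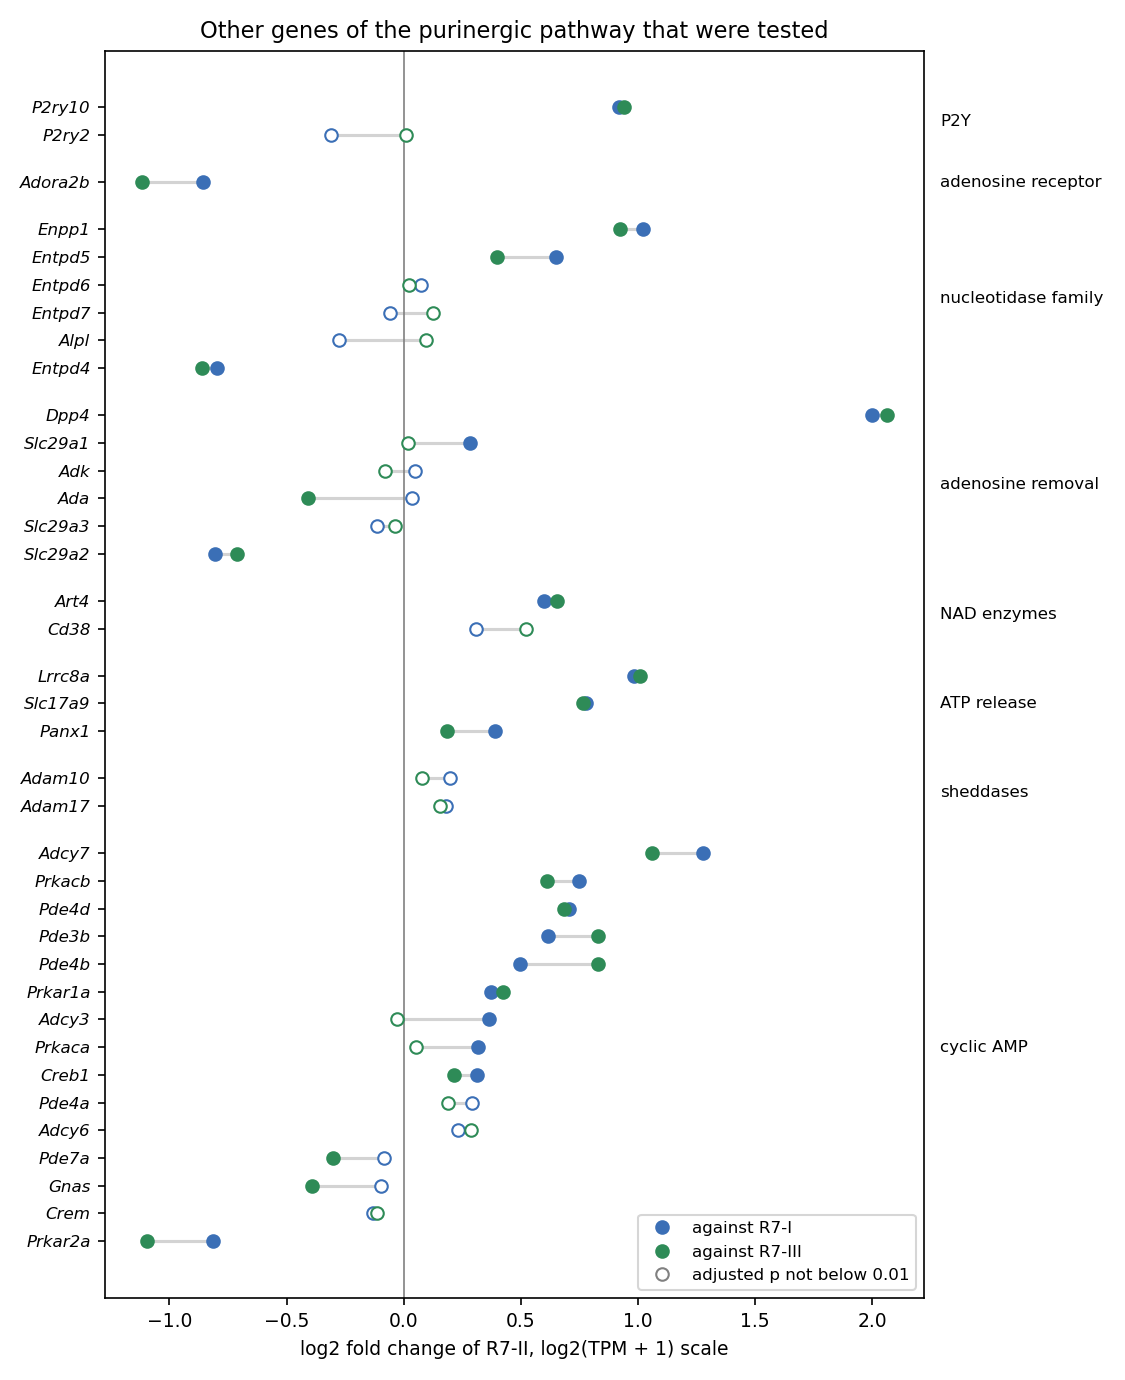
Log2 fold change of R7-II (horizontal axis, log2(TPM + 1) scale) for the 37 pathway genes tested beside the members, grouped by role; blue marks R7-I and green R7-III as the clone compared, and open circles did not pass the adjusted p of 0.01. Both colours share the R7-II libraries. Dpp4 (2.00 and 2.06) lies farthest to the right, and filled circles of both colours lie left of 0 for Adora2b, Entpd4, Slc29a2 and Prkar2a.

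Set against R7-I, R7-III was higher for 7 of the 37 genes and lower for 1, beside 6.96% higher and 1.45% lower over all genes. After median-of-ratios scaling the counts were 3 and 1, and 551 of the 11330 genes tested were higher, 56.6% of those that passed. Ada was among the 7 genes higher before scaling (log2 fold change 0.44, adjusted p = 0.00470 from limma). Its R7-III libraries at 11.62, 11.14 and 10.62 TPM were above those of R7-I at 8.38, 8.07 and 7.30 TPM. This call was lost with median-of-ratios scaling (0.40, adjusted p = 0.0145 from limma) and with quantile normalization (0.32, adjusted p = 0.0481 from limma). For the members the exact test of these clones gave p between 0.3 and 0.9, where 3 against 3 libraries cannot go below 0.1.

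The genes whose log2(TPM + 1) ran most like that of each tested member over the 9 libraries were found by Pearson correlation, given as a description, since the libraries fall into 3 clones and r follows the order of clones. For P2rx4 they were Fnip1 (0.989), Fli1 (0.987) and Arpc3 (0.986). For Adora2a they were Gemin6 (0.978), Wbscr16 (0.974) and Palb2 (0.973). For Art2b they were Sp140 (0.995), Hsd11b1 (0.995) and 9930111J21Rik1 (0.990).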

How the data were processed

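RNA was measured in 9 libraries of peptide-activated, sorted CD8 T cells, 3 per clone. Poly(A) RNA was sequenced as single-end 100-base reads without strand. The authors estimated gene levels with RSEM 1.2.11 against RefSeq genes of mm10, and the deposited unit is TPM by gene symbol, with 2 decimals. For the aligner behind RSEM the sources used here give no name. Per the submitters' processing notes DESeq2 1.8.1 was run on counts, which were not used here. Each column was tied to its sample by its name.

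The scale log2(TPM + 1) was taken for genes with a highest TPM above 1 and fitted with limma 3.58.1 (lmFit and eBayes with trend, R 4.3.3), all 9 libraries in 1 fit. Exact permutation tests were computed in Python 3.11.15. TPM keeps no depth, so no counting error could be given. The fit was checked on simulated data.

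The members and lists were chosen with earlier results of these data known, and one list symbol was replaced by its older form in the table and one duplicate alias dropped after the table was seen. All members are named, together with pathway genes that passed in a comparison of R7-II or changed most in their list, the 2 most abundant markers of each list and the 3 genes most like each tested member. Other genes were named for context after their values were seen. Alternatives were the pseudocount, filter, scaling, moderation, threshold, libraries in the fit, the replicate number as a block, and each library left out.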

Additional observations from a re-analysis of the deposited data

How the results depend on the processing

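The R7-II comparisons of P2rx4, Adora2a and Art2b kept their direction and side of the threshold under all 19 alternatives, including each library left out. The log2 fold change against R7-I lay between 0.31 and 0.67 for P2rx4, -0.82 and -0.47 for Adora2a, and 0.31 and 3.06 for Art2b, the last by the pseudocount. The contrast of P2rx4 between R7-III and R7-I turned from -0.024 to 0.046 without R7-I replicate 1 and to 0.041 without R7-III replicate 3 (range with each library left out -0.080 to 0.046), and passed in none. The number of pathway genes lower in R7-II than in R7-I was 4, and became 8 with median-of-ratios scaling and 9 with quantile normalization; the cause was not tested. The 7 pathway genes higher in R7-III than in R7-I became 3 without a filter, 3 with median-of-ratios scaling, 2 with quantile normalization, 4 without a trend and 4 with the replicate block, and ranged from 2 to 7 when libraries were left out in turn. The 1 lower gene became 0 without a trend and 0 with the replicate block, and ranged from 0 to 1 when libraries were left out in turn. Genes passing between R7-III and R7-I numbered 953, and 2142 at an adjusted p of 0.05, with a range of 436 to 1120 when each library was left out (436 without R7-I replicate 1). Same-numbered libraries of different clones correlated between -0.0449 and 0.0888 in their deviations from the clone means, beside -0.0948 to 0.0649 for unlike numbers. These values gave no sign of pairing by replicate number, but with 3 libraries per clone they cannot exclude it. No call of a member was changed by the replicate block (P2rx4 0.60, Adora2a -0.60 and Art2b 1.10 against R7-I). For P2rx7, Nt5e and Entpd1 each library left out gave a difference of 0.20 to 0.35, 0.29 to 0.64 and 0.13 to 0.23. The exact tests of 2 against 6 libraries cannot fall below 0.0714.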

Other observations

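Adora3, whose highest TPM did not pass the filter, was at 0.16, 0.18 and 0.12 TPM in the R7-I libraries, at 0.13, 0.16 and 0.15 TPM in R7-II, and at 0, 0.04 and 0 TPM in R7-III. It was chosen after its values were seen and was not tested. Bst1, a NAD-consuming surface enzyme below the filter, was at 0.59, 0.13 and 0.94 TPM in R7-II and at 0.16 TPM at most in the other 6 libraries, so that its R7-II libraries overlapped them, and it too was chosen after its values were seen.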
